A study of Mus musculus with 24 samples.

Results

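The genes described are 10 genes of the extracellular matrix of the lung: Eln, Fbn1, Lox and Loxl1 of the elastic fibre, Fn1, Tnc, Postn, Tgfbi and Cthrc1, which encode matricellular and adhesive matrix proteins, and Tgfb1, which encodes a growth factor stored in that matrix. They were taken by gene symbol from a table of 23891 genes, and all 10 were found. All 10 also passed the filter applied before testing (1 CPM or more as the mean of all 24 samples), as did 17744 genes in all. CPM are the reads of a gene scaled to the same total in every sample. RNA-Seq was performed on the left lung lobe of C57BL/6 mice. Naïve adult mice (20 wk old, saline, n = 5), naïve aged mice (80 wk old, saline, n = 5, called saline in the comparisons with HDM), aged mice challenged with house-dust mite (HDM, 50 µg, n = 7) and aged mice given both HDM and dexamethasone (HDM + Dex, 4 mg/kg at intervals of 72 h, n = 7) were compared. Dexamethasone is a synthetic glucocorticoid that was injected over the time of HDM challenge, and lungs were collected 24 h following the final exposure. A lobe holds all cell types of the lung together. HDM-challenged adult mice were not analysed here.

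Elastic fibres give the lung its recoil. Elastin is laid down on a scaffold of fibrillin microfibrils and crosslinked by lysyl oxidases, and most of it is made during development. The same microfibrils bind latent TGF-β, which is released in injured tissue and raises the production of matrix by fibroblasts and smooth muscle cells. Matricellular proteins such as tenascin-C and periostin do not build the scaffold. They bind integrins and other matrix proteins, and they are known from wounds, fibrosis and the airway wall in asthma.

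The samples held 10.1 to 33.1 M reads on genes, by an estimate from the steps between small CPM values, so that 3 reads gave 0.0906 to 0.298 CPM. 7SL RNA, a noncoding RNA of the signal recognition particle, took 9.92% to 42.0% of the CPM of a sample and so lowered the CPM of every other gene by a varying amount. Its share was 25.5% ± 7.36 in HDM (SD, n = 7) and 12.2% ± 3.41 in saline (SD, n = 5), a difference with p = 0.00758 in a two-sided exact permutation test (0.0227 when adjusted for 3 such tests). It was 22.6% ± 8.73 in HDM + Dex (n = 7; exact p = 0.493 against HDM) and 20.7% ± 11.99 in naïve adult mice (n = 5; exact p = 0.0714 for aged vs. adult). For this reason the differences of the 10 genes are given for CPM as deposited and again after rescaling by median-of-ratios factors, which align the typical gene of each sample. Over the genes tested, the median log2 fold change was −0.23 in HDM vs. saline and 0.19 in aged vs. adult as deposited, and −0.01 and 0.00 after rescaling. Naïve adult replicate 1, with a 7SL share of 42.0%, stood apart and had the lowest CPM of its group in 9 of the 10 genes. By Xist and Ddx3y, all 5 naïve adult mice were female, whereas 3 of 5 saline, 5 of 7 HDM and 3 of 7 HDM + Dex mice were male. All 8 males of the HDM and HDM + Dex groups had a 7SL share above 25%, and among HDM mice the 2 females were the 2 samples below it, so that sex and 7SL share cannot be told apart in HDM lungs. Markers of lung tissue were present throughout, with Sftpc, the surfactant protein of type 2 alveolar cells, at 1212 CPM or more in all samples.

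Measured per kb of merged exons, Fn1 was the most abundant of the 10 genes in every group. Fn1 encodes fibronectin, an adhesive glycoprotein of plasma and matrix, and it had 43.8 ± 8.25 CPM per kb in naïve aged lungs (SD, n = 5). Eln (16.6 ± 4.28), Loxl1 (14.8 ± 2.46), Tgfbi (13.9 ± 2.36), Fbn1 (13.5 ± 2.21) and Postn (13.1 ± 2.98 CPM per kb) followed, and neighbours in this order differed by less than their SD. Lox (10.2 ± 4.29) and Tgfb1 (7.31 ± 1.01 CPM per kb) came next and differed by less than the SD of Lox. Tnc had 2.41 ± 0.685 CPM per kb and Cthrc1 0.971 ± 0.247 CPM per kb, each below the gene before it by more than the SD. In HDM lungs Tgfbi moved to the second place, at 39.3 ± 19.3 CPM per kb (SD, n = 7), after Fn1 at 104 ± 38.1 CPM per kb. Cthrc1 encodes a secreted collagen triple helix repeat protein of injured tissue, and its level rested on few reads, an estimated 5 to 46 in each sample.

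**Figure D1:**
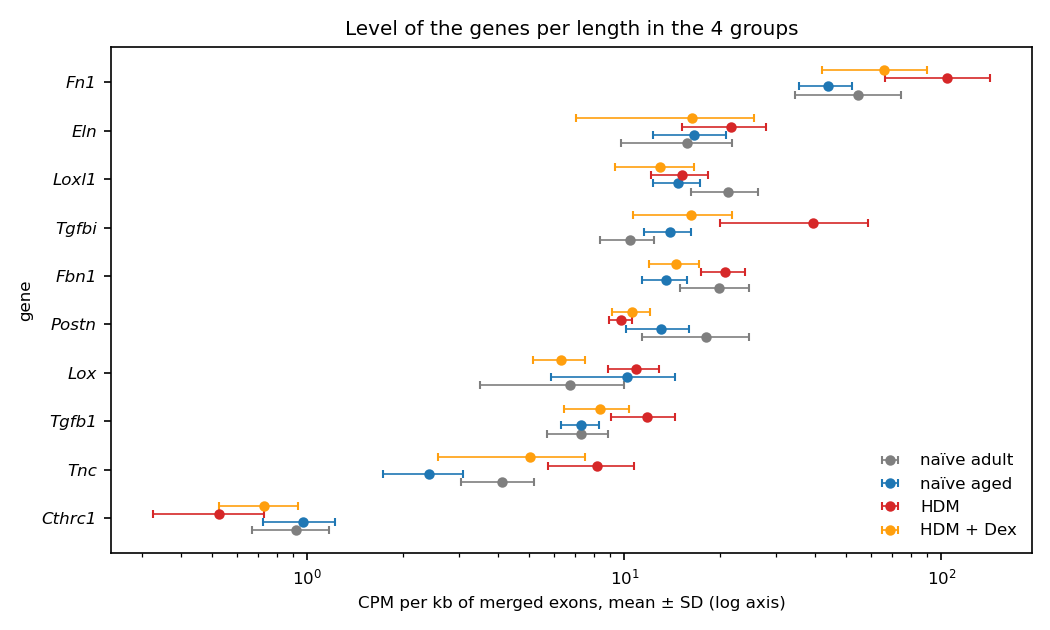
Level of each gene in CPM per kb of merged exons (horizontal log axis), as the mean ± SD of naïve adult (n = 5), naïve aged (n = 5), HDM (n = 7) and HDM + Dex (n = 7) samples. Fn1 lies highest in all 4 groups and Cthrc1 lowest, and Tgfbi, Fn1 and Tnc are shifted to the right in the HDM samples.

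The coordinates of the table matched those of mouse build GRCm38, in which Eln lies at chr5:134702593-134747323, Fbn1 at chr2:125300594-125507993, Fn1 at chr1:71585520-71653200 and Tnc at chr4:63959785-64047015, all on the minus strand. Postn lies at chr3:54361109-54391037, Tgfb1 at chr7:25687002-25705077, Tgfbi at chr13:56609523-56639562 and Cthrc1 at chr15:39076932-39087121 on the plus strand, and Loxl1 lies at chr9:58287738-58313186 on the minus strand. Coordinates of Lox are not given here. Eln, Fbn1 and Tnc overlap genes of the opposite strand that were also in the table (Gm30003, Gm9913 and 8030451A03Rik, with means of 0.452, 2.07 and 0.383 CPM), and whether the counting used strand is not given in the sources used here. Fn1 and Lox overlap annotated antisense genes that were not analysed here.

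Of the genes that differed with HDM, a RefSeq promoter window (GRCm38.p6, from 250 bases before the start of transcription to 50 bases from it) was found for 5, and these windows are shown because their genes were called in the same comparison. The Fbn1 window lies inside the gene as annotated above, at a start downstream of its 5′ end. Capitals mark matches on either strand to the SMAD box CAGAC, through which TGF-β acts, and to the TATA box TATAAA, and no match overlapped another. The palindromic SMAD site GTCTAGAC, the AP-1 site TGANTCA and the glucocorticoid receptor motif AGAACA were searched as well.
Tnc, chr4:64046887-64047186, minus strand: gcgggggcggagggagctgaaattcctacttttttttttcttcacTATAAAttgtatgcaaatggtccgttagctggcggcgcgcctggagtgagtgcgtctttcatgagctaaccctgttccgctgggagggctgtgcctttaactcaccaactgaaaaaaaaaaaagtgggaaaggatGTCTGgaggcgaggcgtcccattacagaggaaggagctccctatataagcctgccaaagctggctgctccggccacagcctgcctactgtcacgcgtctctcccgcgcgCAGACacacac
Tgfbi, chr13:56609336-56609635, plus strand: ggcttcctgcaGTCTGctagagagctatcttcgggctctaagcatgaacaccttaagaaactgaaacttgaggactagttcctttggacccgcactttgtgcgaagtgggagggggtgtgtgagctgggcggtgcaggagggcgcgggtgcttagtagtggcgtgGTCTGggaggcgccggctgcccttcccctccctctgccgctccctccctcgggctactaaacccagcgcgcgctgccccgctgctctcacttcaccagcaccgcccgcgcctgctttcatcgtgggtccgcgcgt
Fbn1, chr2:125506389-125506688, minus strand: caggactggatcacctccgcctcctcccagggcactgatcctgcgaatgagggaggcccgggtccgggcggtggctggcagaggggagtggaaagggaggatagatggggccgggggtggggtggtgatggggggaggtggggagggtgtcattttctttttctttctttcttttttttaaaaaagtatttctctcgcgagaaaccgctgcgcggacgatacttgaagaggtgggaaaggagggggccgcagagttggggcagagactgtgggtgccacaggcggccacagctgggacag
Tgfb1, chr7:25686752-25687051, plus strand: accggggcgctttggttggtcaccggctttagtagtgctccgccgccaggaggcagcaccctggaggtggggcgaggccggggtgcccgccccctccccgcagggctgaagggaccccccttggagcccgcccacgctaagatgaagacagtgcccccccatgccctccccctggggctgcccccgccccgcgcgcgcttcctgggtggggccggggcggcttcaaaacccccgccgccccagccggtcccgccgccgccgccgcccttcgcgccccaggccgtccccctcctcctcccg
Postn, chr3:54360857-54361156, plus strand: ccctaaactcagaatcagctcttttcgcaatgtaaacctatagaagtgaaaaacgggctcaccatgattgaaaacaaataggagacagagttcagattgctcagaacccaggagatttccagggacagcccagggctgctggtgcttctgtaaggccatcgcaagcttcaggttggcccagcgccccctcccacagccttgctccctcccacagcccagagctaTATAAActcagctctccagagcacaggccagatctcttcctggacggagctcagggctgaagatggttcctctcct
CAGAC was found in the Tnc window at −70 and 39 bases from the start and in the Tgfbi window at −239 and −85, and it was not found in the other windows shown. This short motif is held by 49.6% of 32851 promoter windows of that length. TATAAA lay at −26 in Postn and at −205 in Tnc, and 13.6% of windows hold it. Only exact matches were marked, and variants were not searched, such as the tatataag that lies closer to the start in the Tnc window. GTCTAGAC, TGANTCA and AGAACA, held by 0.213%, 7.81% and 18.97% of windows, had no match in the windows shown. A second RefSeq window of Postn and of Tnc, at an alternative start, is not shown. CAGAC was found there at −191 in Postn and at 9 in Tnc, and TATAAA at −126 in Tnc.

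HDM challenge of aged lungs went with higher levels of 5 of the 10 genes. Tnc, Tgfbi, Fn1, Tgfb1 and Fbn1 rose, with fold changes from 1.52 for Fbn1 to 3.24 for Tnc. Postn and Cthrc1 were called lower on CPM as deposited. Of all genes tested, 4.04% were called higher and 21.2% lower in this comparison (limma, Benjamini-Hochberg adjusted p under 0.05). The 2 of 10 called lower are near that share of all genes. After rescaling the same 5 genes were called higher, against 10.9% of all genes, and none was called lower. Over all genes, 717 were called higher and 3765 lower as deposited, and 1930 and 2058 (11.6%) after rescaling. In whole lung, fewer cells of a type and less RNA per cell cannot be told apart. The p-values set each difference against the spread between these samples.

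Tnc encodes tenascin-C, a large matrix glycoprotein that is scarce in healthy adult tissue and appears in wounds and inflamed airways. Its level was 11.5, 14.98, 21.7, 21.1 and 24.5 CPM in the 5 saline samples, and it ran from 30.2 through a median of 66.1 to 85.8 CPM in the 7 HDM samples. All HDM samples lay above all saline samples, and on CPM as deposited Tnc was the sole gene of the 10 without overlap, as 1.03% of all genes were in this direction. The log2 fold change was 1.69 ± 0.26 (SE; adjusted p = 0.000478), and 1.94 ± 0.30 after rescaling (adjusted p = 0.000385). After rescaling Fn1, Tgfb1 and Fbn1 did not overlap either, and the share of all genes was not counted on that scale.

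Fn1 was at 463, 376, 622, 523 and 577 CPM in saline samples and ran from 530.1 through a median of 1354 to 1887 CPM in HDM samples. In 6 of the 7 HDM samples it was above every saline sample, and HDM replicate 2 was the exception. Its log2 fold change was 1.17 ± 0.27 (adjusted p = 0.00363), and 1.43 ± 0.31 after rescaling (adjusted p = 0.00299). With the 7SL share as a covariate it was 0.92, and the call was lost (adjusted p = 0.0821).

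Tgfbi encodes a secreted adhesion protein that is induced by TGF-β and is made in quantity by macrophages and fibroblasts. Saline samples had 47.4, 47.7, 43.1, 62.2 and 61.7 CPM, and HDM samples ran from 37.0 through a median of 149.8 to 275 CPM. Again 6 of the 7 HDM samples were above every saline sample, while HDM replicate 2 was below all of them. The log2 fold change was 1.31 ± 0.33 (adjusted p = 0.0075) and 1.56 ± 0.31 after rescaling (adjusted p = 0.00167), and the highest HDM sample was 7.42 times the lowest, the widest range of any of the 10 genes in any group.

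Tgfb1 encodes TGF-β1, the ligand that most cells of the lung release in latent form. It was at 35.7, 41.4, 28.6, 40.5 and 38.0 CPM in saline samples and ran from 40.3 through a median of 60.3 to 83.2 CPM in HDM samples, and 6 of the 7 HDM samples exceeded all saline samples. The log2 fold change was 0.65 ± 0.17 (adjusted p = 0.00841), and 0.90 ± 0.14 after rescaling (adjusted p = 0.00036). Fbn1 encodes fibrillin-1, the main protein of microfibrils. Its saline samples had 158, 170.2, 198, 171 and 124 CPM, and its HDM samples ran from 166 through 259 to 291 CPM. Again 6 of the 7 were above all saline samples, with a log2 fold change of 0.61 ± 0.15 (adjusted p = 0.00637), and of 0.86 ± 0.17 after rescaling (adjusted p = 0.00151). These 5 genes kept their call when any of the 19 aged samples was left out, with a highest adjusted p of 0.0346 for Tgfb1. In a rank test over all genes Tnc alone of the 10 genes was called, and the adjusted p of the other 4 ran from 0.0533 to 0.133.

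The other members of the elastic fibre did not pass the test. Eln, the gene of elastin itself, ran from 88.5 to 176 CPM in saline and from 104 to 238 CPM in HDM samples, with a log2 difference of 0.36 ± 0.30 (adjusted p = 0.376), and of 0.62 ± 0.34 after rescaling (adjusted p = 0.192). Lox, which encodes the lysyl oxidase that crosslinks collagen and elastin, had 48.6 ± 20.5 CPM in saline (SD, n = 5) and 52.0 ± 9.43 CPM in HDM (SD, n = 7; limma, log2 difference 0.17 ± 0.19, adjusted p = 0.544, and 0.42 ± 0.21 after rescaling, adjusted p = 0.151). Loxl1, which encodes the related enzyme that acts on elastin, had 48.8 ± 8.10 and 50.3 ± 10.3 CPM (log2 difference 0.033 ± 0.17, adjusted p = 0.902). After rescaling the difference of Loxl1 was 0.28 ± 0.13 (adjusted p = 0.133), and its HDM samples lay between 43.5 and 56.9 rescaled CPM over both sexes.

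Postn encodes periostin, a matricellular protein known as a product of airway epithelium and fibroblasts in asthma. It was at 144, 79.4, 125, 95.3 and 124 CPM in saline samples and ran from 78.5 through a median of 82.9 to 100.05 CPM in HDM samples. The HDM samples lay within a narrow band, with a coefficient of variation of 8.51%, and overlapped the lower saline samples. The log2 fold change was −0.39 ± 0.14 (adjusted p = 0.0385), but −0.14 ± 0.15 after rescaling (adjusted p = 0.559). Cthrc1 had 1.62, 1.82, 1.31, 1.01 and 1.98 CPM in saline samples and ran from 0.497 through 0.814 to 1.37 CPM in HDM samples. In 5 of the 7 HDM samples it was below every saline sample, with a log2 fold change of −0.47 ± 0.16 (adjusted p = 0.0396) and of −0.34 ± 0.15 after rescaling (adjusted p = 0.106). Both calls also depended on single samples. That of Postn was lost without naïve aged replicate 1, 3 or 5 or HDM replicate 2, 3, 4 or 5 (adjusted p = 0.0536 to 0.137). That of Cthrc1 was lost without naïve aged replicate 1, 2, 3 or 5 or HDM replicate 1, 3, 4 or 7 (adjusted p = 0.0573 to 0.102).

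**Figure D2:**
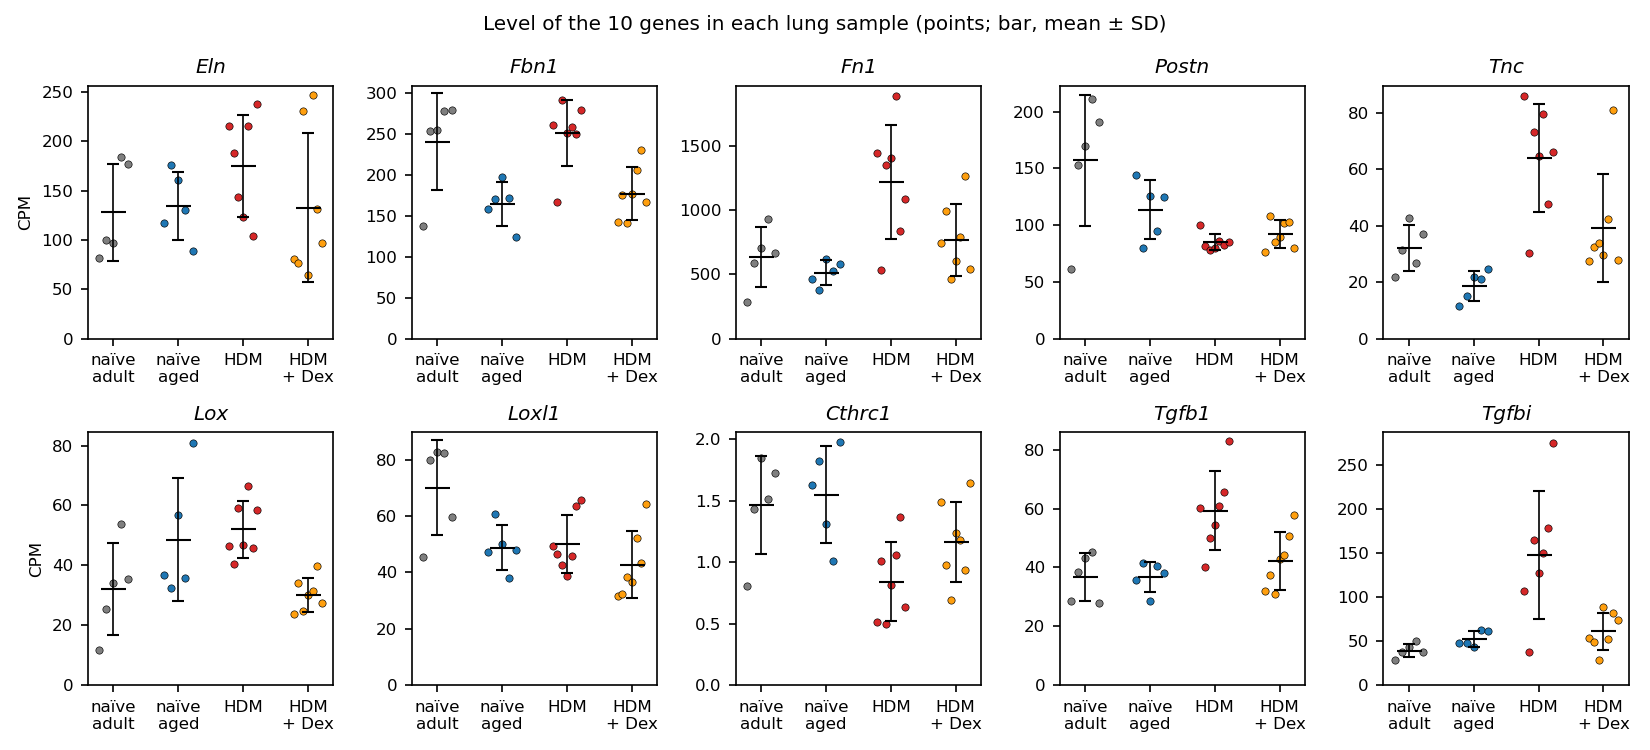
CPM of each gene (vertical axes, from 0) in every sample of the 4 groups, with the group mean ± SD as bars. The 7 HDM samples of Tnc (30.2 to 85.8 CPM) lie above the 5 naïve aged samples (11.5 to 24.5 CPM), and those of Lox lie above all 7 HDM + Dex samples.

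The HDM samples could be split once, since a split by 7SL share and a split by sex gave the same 2 and 5 HDM samples. Within the samples whose 7SL share was below 25% (2 HDM and 5 saline), the log2 difference was 1.58 for Tnc, 2.07 for Tgfbi, 0.92 for Fn1, 1.00 for Tgfb1, 0.70 for Fbn1, −0.40 for Postn and −0.36 for Cthrc1. No saline sample was above 25%, so that the other stratum gave no difference. With the same 2 HDM samples, all female, against the 2 saline females it was 1.36 for Tnc, 2.07 for Tgfbi, 0.74 for Fn1, 1.09 for Tgfb1 and 0.52 for Fbn1, and among males (the other 5 HDM samples, all above 25%, and 3 saline samples, all below) it was 1.89, 1.00, 1.39, 0.45 and 0.69. All 5 genes were thus higher in both sets of HDM samples, and whether the sets differed was not tested. The summed CPM of 8 macrophage markers ran from 218 to 276 in saline and from 198 to 609.5 in HDM samples, with 2 of the 8 called higher. That of 10 lung fibroblast markers ran from 1465 to 1856 in saline and from 1621 to 1785 in HDM, with 2 called higher and 6 lower. All 6 heart muscle markers were called lower (sum 554 to 1033 CPM in saline, 21.8 to 424 in HDM), as were 5 of 6 endothelial markers (1384 to 1940.4 and 845 to 1418 CPM). These calls are on CPM as deposited, where 4.04% of all genes were called higher and 21.2% lower. After rescaling (10.9% and 11.6% of all genes), 4 macrophage and 2 fibroblast markers were called higher. On that scale 3 fibroblast, 2 endothelial and all 6 heart muscle markers were called lower. No macrophage, heart muscle or endothelial marker was at 0 in any sample, and of the fibroblast markers Lum was at 0 in at least 1 HDM + Dex sample. The part of these cell types in the changes of the 10 genes was not tested.

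Treatment with Dex went with a lower level of Lox, which was the sole gene of the 10 to be called between HDM + Dex and HDM. Of all genes tested, 0.214% were called lower. The values of 8 of the 10 genes, Lox among them, were lower with Dex. The median log2 fold change was −0.52 over the 10 genes against 0.03 over all genes tested. The share of all genes with lower values was not counted, and some of the 10 genes varied together between mice. These HDM samples are the same as in the comparison with saline.

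Lox ran from 40.4 through a median of 46.9 to 66.4 CPM in HDM samples and from 23.7 through 30.1 to 39.7 CPM in HDM + Dex samples. All 7 HDM + Dex samples were below all 7 HDM samples, as held for 0.0789% of all genes in this direction. After rescaling the highest HDM + Dex sample and the lowest HDM sample crossed, at 46.1 and 39.0 rescaled CPM. The log2 fold change was −0.77 ± 0.18 (adjusted p = 0.0372), and −0.81 ± 0.19 after rescaling (adjusted p = 0.0253). It was −0.76 among samples with a 7SL share above 25% (4 HDM + Dex, 5 HDM) and −0.78 among those below (3 and 2). It was −0.68 among females (4 and 2) and −0.89 among males (3 and 5), with the same HDM samples in these sets as in those by 7SL share. The call was near the threshold, since it was lost without HDM replicate 1, 3, 4 or 5 or HDM + Dex replicate 1, 3, 4, 5 or 7 (adjusted p = 0.0597 to 0.0978).

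Tgfbi ran from 28.9 through a median of 53.9 to 88.6 CPM in HDM + Dex samples, and 6 of the 7 HDM samples were above that range. Its log2 difference was −1.15 ± 0.30 (adjusted p = 0.0661), and after rescaling −1.19 ± 0.28 (adjusted p = 0.0255). Tgfb1 ran from 30.9 through 42.8 to 57.8 CPM, a log2 difference of −0.48 ± 0.15 (adjusted p = 0.135), and of −0.52 ± 0.13 after rescaling (adjusted p = 0.0286). On the rescaled values Lox, Tgfbi and Tgfb1 were therefore called lower, against 0.862% of all genes.

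Fbn1 had 177 ± 32.1 CPM with Dex against 251.3 ± 40.3 CPM with HDM alone (SD, n = 7 each; limma, log2 difference −0.50 ± 0.14, adjusted p = 0.0728, and −0.55 ± 0.15 after rescaling, adjusted p = 0.0547). Tnc ran from 27.4 through 32.6 to 81.0 CPM and Fn1 from 459.7 through 740.2 to 1267 CPM in HDM + Dex samples. Their log2 differences were −0.73 ± 0.24 (adjusted p = 0.146) and −0.64 ± 0.24 (adjusted p = 0.215), the groups overlapped, and the rescaled values were −0.77 and −0.69. Eln varied most with Dex, from 64.0 to 246 CPM, with a coefficient of variation of 57.1% and a log2 difference of −0.53 ± 0.27 (adjusted p = 0.415), or −0.57 after rescaling. Loxl1 differed by −0.25 ± 0.16 (adjusted p = 0.544), Postn by 0.11 ± 0.12 (adjusted p = 0.783) and Cthrc1 by 0.24 ± 0.15 (adjusted p = 0.54), and by −0.29, 0.065 and 0.22 after rescaling.

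A pair of samples bore on these values. HDM replicate 2 had the lowest CPM of the HDM samples in 6 of the 10 genes (Fbn1, Fn1, Tnc, Lox, Tgfb1 and Tgfbi), and HDM + Dex replicate 6 had the highest of its group in 4 (Fbn1, Fn1, Tnc and Lox). Both were singled out after these values were seen. Leaving out the lowest HDM sample of a gene, or its highest HDM + Dex sample, widens its difference by construction. The counts that follow therefore describe the weight of these samples and are no further evidence of an effect of Dex. Without HDM replicate 2, 6 genes were called lower with Dex, and 1.4% of all genes were. These were Lox and, with adjusted p-values of 0.0171 for Fbn1, 0.0395 for Fn1, 0.032 for Tnc, 0.0436 for Tgfb1 and 0.00425 for Tgfbi, the same genes that had risen with HDM. Without HDM + Dex replicate 6, 4 genes were called lower, against 0.507% of all genes, and the log2 difference of Tnc was −0.91 (adjusted p = 0.024). The 7SL shares of these samples, 28.6% and 30.2%, were within the range of the other samples of their groups.

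Compared with saline, HDM + Dex lungs differed in none of the 10 genes at an adjusted p under 0.05, as against 1.89% of all genes called in either direction (limma, 79 higher and 256 lower as deposited, 87 and 80 after rescaling). At an unadjusted p under 0.05 the count was 3 of the 10 (Tnc, Lox and Postn), beside 21.2% of all genes. Tnc remained above all 5 saline samples in all 7 HDM + Dex samples, as 0.524% of all genes did, with a log2 difference of 0.97 ± 0.26 (adjusted p = 0.0561), and of 1.17 ± 0.30 after rescaling (adjusted p = 0.058). It was called without HDM replicate 2 or HDM + Dex replicate 4 or 7 (adjusted p = 0.0313 to 0.0437). Without any other sample it was not called, with an adjusted p of up to 0.167 (without naïve aged replicate 1). HDM + Dex replicates 4 and 7 had 29.5 and 27.7 CPM, below the group median of 32.6. Leaving either out therefore widens the difference by construction, and the share of all genes called then is not given here. Lox was below all saline samples in 5 of the 7 HDM + Dex samples, with a log2 difference of −0.60 ± 0.19 (adjusted p = 0.102), and of −0.39 ± 0.21 after rescaling (adjusted p = 0.36). Fn1 differed by 0.53 ± 0.27 (adjusted p = 0.248), Postn by −0.28 ± 0.14 (adjusted p = 0.234), Tgfb1 by 0.17 ± 0.17 (adjusted p = 0.539), Tgfbi by 0.15 ± 0.33 (adjusted p = 0.799) and Fbn1 by 0.10 ± 0.15 (adjusted p = 0.693). After rescaling these differences were 0.74 for Fn1, −0.072 for Postn, 0.38 for Tgfb1, 0.36 for Tgfbi and 0.31 for Fbn1, with adjusted p-values from 0.173 to 0.855. Eln, Loxl1 and Cthrc1 differed by −0.16 ± 0.30, −0.21 ± 0.17 and −0.23 ± 0.16 (adjusted p = 0.762, 0.453 and 0.388), and by 0.048, −0.0067 and −0.12 after rescaling.

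**Figure D3:**
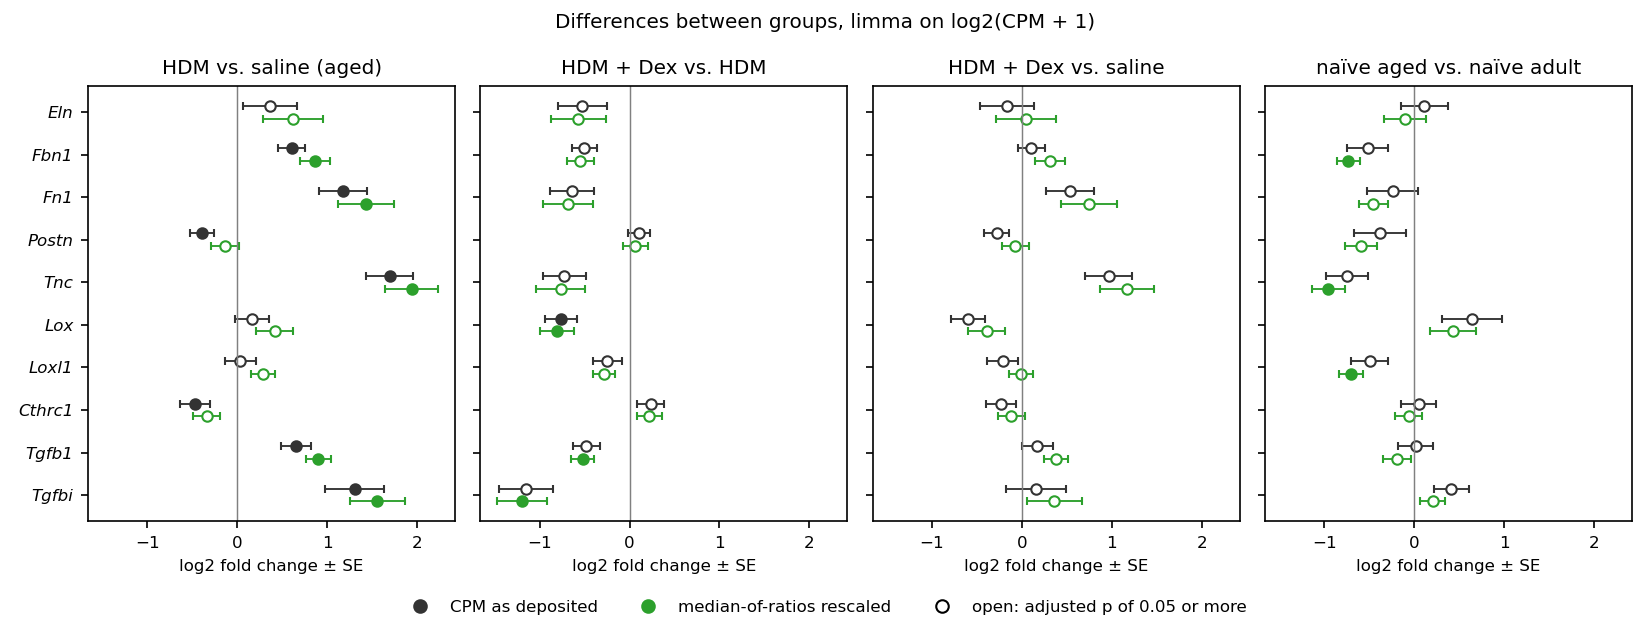
Log2 fold change ± SE (limma) of each gene in the 4 comparisons, for CPM as deposited (black) and after median-of-ratios rescaling (green), with open symbols where the adjusted p was 0.05 or more. Tnc, Tgfbi, Fn1, Tgfb1 and Fbn1 are called higher with HDM on both scales, and Lox is the gene called lower with Dex on both.

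Between naïve aged and naïve adult lungs, none of the 10 genes was called on CPM as deposited, as against 0.654% of all genes in either direction (limma, 105 higher and 11 lower as deposited, 103 and 80 after rescaling). At an unadjusted p under 0.05 the count was 4 of the 10 (Tnc, Loxl1, Fbn1 and Tgfbi), beside 11.2% of all genes. After rescaling, Fbn1, Loxl1 and Tnc were called lower with age, against 0.451% of all genes. All adult mice were female and of the aged mice 2 of 5, so that the sex of the mice overlapped with their age. With sex as a covariate none was called on CPM as deposited, as without it, and the rescaled values were not fitted with sex.

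Tnc was at 21.9, 31.5, 42.8, 26.9 and 37.1 CPM in the adult samples, and 4 of the 5 aged samples were below all of these. The log2 difference was −0.75 ± 0.23 (adjusted p = 0.196), and after rescaling −0.95 ± 0.19 (adjusted p = 0.0282). Fbn1 was at 137, 253, 255, 279 and 279 CPM in adult samples, a log2 difference of −0.52 ± 0.22 (adjusted p = 0.397), and after rescaling −0.73 ± 0.13 (adjusted p = 0.016). Adult replicate 1 was far below the other adult samples of Fbn1, and without it the difference was −0.71 and was called on the CPM as deposited (adjusted p = 0.0223). Leaving out the lowest adult sample widens this difference by construction, so the call describes the weight of that sample. The share of all genes called without it is not given here. With other samples left out the adjusted p reached 0.578 (without naïve aged replicate 1). After rescaling the 5 adult samples drew together, at 239 ± 19.4 rescaled CPM, against 145 ± 24.7 in the aged samples (SD, n = 5 each).

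Loxl1 had 45.6, 80.1, 82.8, 82.6 and 59.6 CPM in adult and 47.1, 60.7, 50.2, 38.0 and 48.1 CPM in aged samples. Its log2 difference was −0.49 ± 0.21 (adjusted p = 0.376), and after rescaling −0.70 ± 0.14 (adjusted p = 0.0274). Postn differed by −0.38 ± 0.29 (adjusted p = 0.592) and Fn1 by −0.24 ± 0.28 (adjusted p = 0.709), or by −0.59 (adjusted p = 0.151) and −0.45 (adjusted p = 0.227) after rescaling. With the 7SL share as a covariate both were called lower with age, Postn at −0.89 (adjusted p = 0.00739) and Fn1 at −0.68 (adjusted p = 0.0378), together with Fbn1, while Tnc and Loxl1 were not. Lox was at 11.9, 25.4, 34.0, 54.0 and 35.4 CPM in adult samples and at 36.8, 32.4, 57.0, 35.7 and 80.9 CPM in aged samples. With such spread its log2 difference of 0.64 ± 0.33 did not pass (adjusted p = 0.479), and it was 0.44 after rescaling. Tgfbi differed by 0.41 ± 0.19 (adjusted p = 0.43), and Eln, Cthrc1 and Tgfb1 by 0.11 ± 0.26, 0.051 ± 0.19 and 0.019 ± 0.19 (adjusted p = 0.852, 0.911 and 0.966). After rescaling these 4 differed by 0.20, −0.10, −0.061 and −0.19.

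The other genes of the same pathways moved in both directions. Of the other 23 elastic fibre genes tested, 4 were called higher (17.4%, against 4.04% of all genes) and 6 lower (26.1%, against 21.2%) in HDM vs. saline, and the median log2 fold change of the list of 27 was −0.10, against −0.23 over all genes. Ltbp2, which encodes a protein of elastic microfibrils, rose from 73.5 ± 9.87 CPM in saline to 143 ± 40.6 CPM in HDM (SD, n = 5 and 7; limma, log2 fold change 0.91 ± 0.22, adjusted p = 0.00512). Emilin1, an elastin interface glycoprotein, rose by 0.81 ± 0.16 (adjusted p = 0.00161), and Loxl3, a further lysyl oxidase, by 0.68 ± 0.17 (adjusted p = 0.0076). Ltbp4, which binds latent TGF-β and is needed for elastic fibres, fell from 309 ± 39.6 to 159 ± 57.3 CPM (log2 fold change −1.01 ± 0.21, adjusted p = 0.0018). The proteoglycan gene Dcn (−1.38 ± 0.47, adjusted p = 0.0337) and the fibulin gene Fbln2 (−0.77 ± 0.28, adjusted p = 0.0495) also fell, but after rescaling these were not called (adjusted p = 0.0543 and 0.118). Rescaling left 5 of the 23 called higher and 2 lower (21.7% and 8.70%, against 10.9% and 11.6% of all genes). With Dex none of the 23 was called against HDM as deposited, and Ltbp2 was called lower after rescaling (−0.85, adjusted p = 0.0377; 0.0509 as deposited). Against saline Fbln2, Ltbp4 and Efemp1, a fibulin gene, were lower as deposited (adjusted p = 0.0404, 0.0325 and 0.0444), but none was called after rescaling.

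Among 22 other matricellular genes tested, 3 were called higher and 7 lower with HDM (13.6% and 31.8%, against 4.04% and 21.2% of all genes). After rescaling these counts were 4 and 3 (18.2% and 13.6%, against 10.9% and 11.6%). The share called lower was then near that of all genes. Thbs4, a thrombospondin gene of injured tissue, rose from 0.662 ± 0.358 to 3.34 ± 2.27 CPM (log2 fold change 1.24 ± 0.31, adjusted p = 0.00644). Smoc1, a calcium-binding protein of basement membranes, fell from 3.26 ± 0.750 to 0.684 ± 0.326 CPM (−1.34 ± 0.18, adjusted p = 0.000185), Ccn3 fell by 1.28 ± 0.22 on the log2 scale (adjusted p = 0.000665) and Matn2, of the matrilin family, by 1.10 ± 0.36 (adjusted p = 0.0282; 0.0511 after rescaling). With Dex, Sparc, which encodes a collagen-binding protein made by fibroblasts and endothelium, was the sole gene of these called against HDM as deposited. It was at 869 ± 195 CPM in HDM and 520.5 ± 128 CPM in HDM + Dex (SD, n = 7 each; limma, log2 fold change −0.75 ± 0.16, adjusted p = 0.0311, and 0.048 after rescaling). After rescaling Ccn3 was called as well, higher with Dex (0.66, adjusted p = 0.027; 0.0942 as deposited). Against saline, Smoc1 (−0.96 ± 0.18, adjusted p = 0.0117) and Ccn2, a classical target of TGF-β (−0.77 ± 0.19, adjusted p = 0.0403), were lower in HDM + Dex lungs, the latter not after rescaling (adjusted p = 0.251).

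Of 28 genes of the TGF-β pathway other than Tgfb1, 1 was called higher and 9 lower with HDM, and 4 and 4 after rescaling. The share called higher was 3.57% and after rescaling 14.3%, near the 4.04% and 10.9% of all genes, and the share called lower was 32.1% and 14.3%, against 21.2% and 11.6%. The gene called higher was Nrros, which anchors latent TGF-β1 on macrophages and microglia, at 24.1 ± 3.76 CPM in saline and 44.1 ± 11.8 CPM in HDM (log2 fold change 0.81 ± 0.17, adjusted p = 0.00243). The receptor genes Tgfbr3 (−1.15 ± 0.18, adjusted p = 0.000509) and Eng (−0.91 ± 0.22, adjusted p = 0.00544) fell, and both stayed lower after rescaling (adjusted p = 0.000503 and 0.0165). None of the 28 was called between HDM + Dex and HDM on either scale, and Tgfbr3 and Ltbp4 were lower in HDM + Dex than in saline as deposited (adjusted p = 0.0318 and 0.0325). Among 12 genes of receptors for fibronectin and tenascin, none rose as deposited, and Itga8, an integrin subunit of fibroblasts and smooth muscle (−1.40 ± 0.27, adjusted p = 0.00128), and Ptprz1, a receptor phosphatase that binds tenascins (−1.87 ± 0.30, adjusted p = 0.000509), fell. These 2 of 12 (16.7%) are below the share of all genes called lower, 21.2%. After rescaling 3 of the 12 were called higher and the same 2 lower (25% and 16.7%, against 10.9% and 11.6% of all genes). Ptprz1 was then called higher in HDM + Dex than in HDM (0.90, adjusted p = 0.0455, and 0.108 as deposited).

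Enzymes that cut elastin and their inhibitors were the list with the largest median in HDM vs. saline, 1.05 over 10 genes tested. On either scale 7 were called higher (70%) and 1 lower (10%). Of all genes, 4.04% were called higher and 21.2% lower as deposited, and 10.9% and 11.6% after rescaling. The share called lower was thus not above that of all genes. Mmp12, the elastase of macrophages, rose from 4.58 ± 2.99 to 282 ± 234 CPM (log2 fold change 5.18 ± 0.64, adjusted p = 8.88e-05) and was at 77.01 ± 60.8 CPM with Dex, still above saline (3.51 ± 0.64, adjusted p = 0.00903). Ctsk, a cathepsin, rose from 12.7 ± 4.94 to 79.8 ± 51.2 CPM (2.33 ± 0.39, adjusted p = 0.000564). Among the inhibitors, Timp1 rose from 1.23 ± 0.840 to 18.2 ± 12.1 CPM (2.78 ± 0.54, adjusted p = 0.00135) and Timp3 fell from 929 ± 376 to 434 ± 107 CPM (−1.05 ± 0.22, adjusted p = 0.00216). None of the 10 was called between HDM + Dex and HDM, with a list median of −0.997, and Slpi, an elastase inhibitor, was called lower after rescaling (−1.08, adjusted p = 0.0495). In naïve lungs Mmp9, another enzyme of this list, was higher with age (16.01 ± 8.33 and 4.94 ± 1.90 CPM, adjusted p = 0.047), but not after rescaling (adjusted p = 0.0786). After rescaling, 4 of the 22 other matricellular genes were called lower with age (18.2%, against 0.451% of all genes). These were Sparc (−0.80, adjusted p = 0.0189), Igfbp7 (−0.65, 0.0123), Npnt (−0.58, 0.0318) and Thbs3 (−0.66, 0.0344). So were Loxl2 of the elastic fibre list (−0.75, adjusted p = 0.0186) and Mmp2 of the enzymes (−0.82, adjusted p = 0.0365), and none of these 6 was called as deposited.

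**Figure D4:**
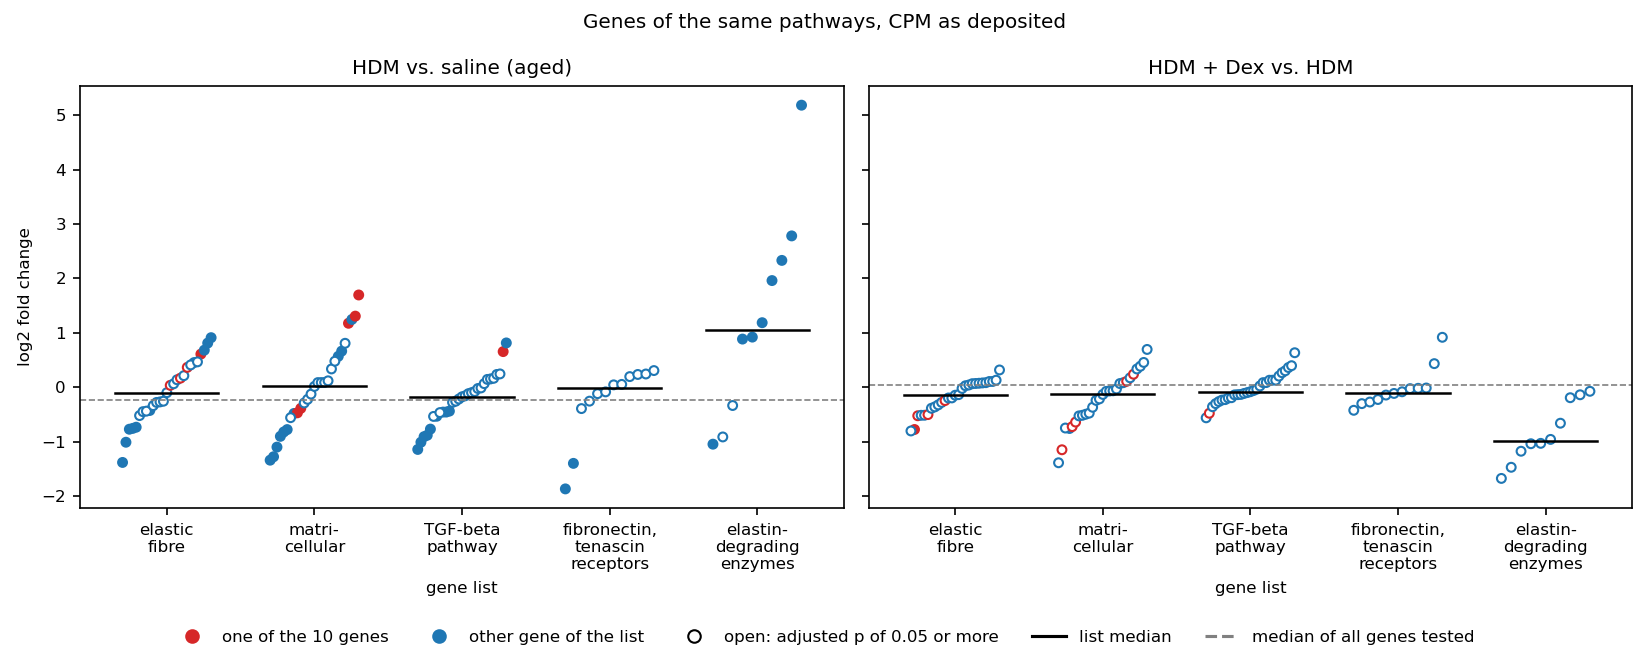
Log2 fold change of every tested gene of 5 pathway lists (points, ordered within each list) in HDM vs. saline and HDM + Dex vs. HDM, with the 10 genes described in red, filled points where the adjusted p was under 0.05, list medians as black lines and the median of all genes as a dashed line. In HDM vs. saline the elastin-degrading list has the highest median (1.05), and all 5 lists have genes on both sides of 0.

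Within groups, the 10 genes did not vary as a unit between mice. After group means were removed from the rescaled log2 values, 8 of the 45 pairs had a Pearson r above 0.5 over the 24 samples, and 15 had an r below 0. These are descriptions over samples that share depth and tissue makeup. The highest values joined Fn1 with Tnc (r = 0.77), Fbn1 (0.77) and Lox (0.74), Fbn1 with Tnc (0.73) and Postn with Lox (0.70). Tgfb1 went with Tgfbi (0.63), whereas Cthrc1 reached no r above 0.1 with any of the other genes. Of all genes tested, those most like Fbn1 were Col3a1 (r = 0.94), Col5a2 (0.88) and Cd34 (0.84), and those most like Tnc were Loxl2 (0.84), Sh3pxd2b (0.83) and Col1a1 (0.83). Fn1 was most like F7 (0.89), Ccl9 (0.88) and Mmp19 (0.87), Tgfbi most like Efhd2 (0.88), Pfn1 (0.86) and Cd44 (0.86), and Tgfb1 most like Esyt1 (0.85), Mfsd5 (0.85) and Slc39a1-ps (0.83). Postn was most like Itgb1 (0.83), Acbd5 (0.83) and Pros1 (0.83), and Lox most like Anxa3 (0.84), Cttn (0.82) and Rab3c (0.82). Eln was most like Peg3 (0.77), Nagk (0.76) and Atp6v0e2 (0.72), Loxl1 most like Scarf2 (0.76), Gm12473 (0.74) and Evc (0.73), and Cthrc1, at a lower r, like 9130019O22Rik (0.65), Gm5470 (0.65) and Kcnq1 (0.65).

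**Figure D5:**
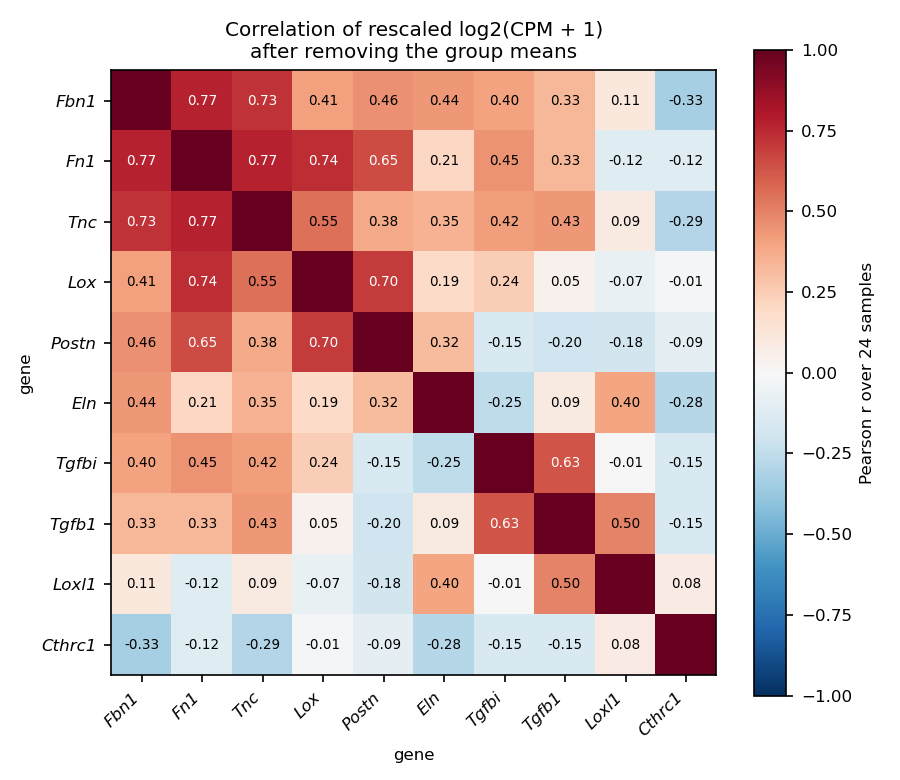
Pearson r between the 10 genes over 24 samples, computed from rescaled log2(CPM + 1) after removing the group means (both axes list the genes, and colour and number give r). Fn1, Fbn1 and Tnc have r between 0.73 and 0.77 with each other, and Cthrc1 has r below 0.1 with every other gene.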

How the data were processed

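RNA-Seq was performed on 24 lung samples (TruSeq Stranded mRNA, paired-end NovaSeq reads). The CPM values were made by the authors from aligned reads per gene and deposited with 0.0001 added to each. The submitters' processing notes name STAR, FastQC and mm9, but 23049 of 23276 symbols found in GENCODE M21 had the start and end of GRCm38. Whole reads could not be recovered from the CPM (80.4% to 85.1% of values up to 20 reads were whole within 0.05), so no count test was run. Groups followed the labels. From the CPM, log2(CPM + 1) was tested over 17744 genes with limma 3.58.1 (R 4.3.3, trend, Benjamini-Hochberg over all genes), in 1 fit of 19 aged and 1 of 10 naïve samples. The fit was checked on simulated data. All 10 genes are named, and from each pathway list up to 3 called genes in either direction with the largest change, with 3 most alike genes for each of the 10. Ltbp2 and Ccn3 in HDM + Dex vs. HDM, and Ptprz1, Slpi, Sparc, Igfbp7, Npnt, Thbs3, Loxl2 and Mmp2 where called after rescaling alone, were named after their values were seen. Members and lists were chosen with earlier results of these data known. Alternatives covered scaling, pseudocount, filter, covariates, weights and left-out samples. Sex as a covariate of the naïve fit was chosen after seeing the data. Figures were drawn with matplotlib 3.10.9.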

Additional observations from a re-analysis of the deposited data

Results flagged for a closer look

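Of 40 sets of values (10 genes in 4 groups), 4 held a sample whose gap to the nearest other sample was unusually wide for the range of its group, where chance flags about 1 in 20. Fbn1 was at 137 CPM in naïve adult replicate 1, with the other 4 samples between 253 and 279 CPM. It was at 166 CPM in HDM replicate 2, with the other 6 samples between 250.2 and 291 CPM. Postn was at 100.05 CPM in HDM replicate 1, above the other 6 samples at 78.5 to 86.2 CPM. Tnc was at 81.0 CPM in HDM + Dex replicate 6, above the other 6 samples at 27.4 to 42.2 CPM.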

How the results depend on the processing

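The 5 genes called higher in HDM vs. saline (Tnc, Tgfbi, Fn1, Tgfb1 and Fbn1) kept their direction under the alternatives run. The number of the 10 genes called in HDM vs. saline, 7 as reported, was 5 with median-of-ratios rescaling, with quantile normalization, without 7SL and rRNA genes in the totals, with all samples in 1 fit, with the compared groups alone or at an adjusted p under 0.01. It was 4 with the 7SL share as a covariate and 1 with a rank test. Between HDM + Dex and HDM, 1 as reported, it was 3 with rescaling, quantile normalization or without 7SL and rRNA genes, 4 with quality weights, sex or the 7SL share as covariates, and 0 with no filter, the compared groups alone, an adjusted p under 0.01 or a rank test. With all samples in 1 fit it was again 1, but Lox was lost (adjusted p = 0.0894) and Tgfbi gained (adjusted p = 0.03). With quality weights, sex and the 7SL share, 611, 293 and 563 of all 17744 genes were called, against 171 as reported. For HDM + Dex vs. saline, the number of the 10 genes, 0 as reported, was 1 without 7SL and rRNA genes or with the compared groups alone, and 2 with quality weights or sex. With quality weights 5471 of all 17744 genes were called and with sex 1929, against 335 as reported. For aged vs. adult, the number of the 10 genes, 0 as reported, was 3 with rescaling, quantile normalization, quality weights, the 7SL share or without 7SL and rRNA genes. These 3 were Fbn1, Tnc and Loxl1, except with the 7SL share, where they were Fbn1, Fn1 and Postn. Of all genes, 183, 156, 784, 170 and 209 were called under these alternatives in that order, against 116 as reported. A change of scaling acts on all genes at once, and the cause of the other shifts was not tested.

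Signs changed for differences that had not passed the test. For Loxl1 in HDM vs. saline these were −0.036 with quality weights, −0.11 with the replicate block and −0.052 in the rank test. In HDM + Dex vs. saline, Eln was 0.048 with rescaling, 0.078 with quantile normalization and 0.042 without 7SL and rRNA genes, Tgfbi was −0.084 with the replicate block and Loxl1 was 0.041 with the 7SL share. In aged vs. adult, with rescaling, quantile normalization, without 7SL and rRNA genes and with the 7SL share, Eln was −0.10, −0.054, −0.074 and −0.064, Cthrc1 −0.061, −0.16, −0.053 and −0.096 and Tgfb1 −0.19, −0.18, −0.16 and −0.084. With quality weights and with sex, Cthrc1 was −0.066 and −0.18 and Tgfb1 −0.20 and −0.079, and the rank test gave −0.022 for Tgfb1.

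When each sample was left out in turn, the number of genes called ran from 0 to 6 in HDM + Dex vs. HDM, from 0 to 1 in HDM + Dex vs. saline and from 0 to 1 in aged vs. adult. The log2 difference ran from −0.051 to 0.11 for Loxl1 in HDM vs. saline and, in aged vs. adult, from −0.057 to 0.13 for Cthrc1, −0.029 to 0.26 for Eln and −0.071 to 0.10 for Tgfb1. The difference in 7SL share between aged and adult ran from −10.2 to −3.15 percentage points, and without naïve aged replicate 2 it was −9.95 (exact permutation test, p = 0.0159).

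Samples were not paired by replicate number in the fits reported. Same-numbered samples had correlations of −0.24 to 0.41. Correlations of differently numbered samples were not computed, so whether the numbers pair the samples cannot be told from these values. With the replicate number as a block, 6, 0, 1 and 0 of the 10 genes were called in the comparisons in the order above, and 5644, 8, 898 and 168 of all genes, against 4482, 171, 335 and 116 without it. Over all genes, the 4482 calls of HDM vs. saline became 7876 with quality weights, 1571 with the 7SL share and 1921 at an adjusted p under 0.01. The 171 calls of HDM + Dex vs. HDM became 505 with rescaling, 528 with quantile normalization, 448 without 7SL and rRNA genes, 611 with quality weights, 563 with the 7SL share, 316 with all samples in 1 fit, 293 with sex, 83 with no filter, 2 at an adjusted p under 0.01 and 1 with the compared groups alone. The 335 calls of HDM + Dex vs. saline became 167, 180, 194, 5471, 34, 190, 1929, 213, 30 and 519 under these alternatives in that order, and 221 without the trend. The 116 calls of aged vs. adult became 183 with rescaling, 209 without 7SL and rRNA genes, 784 with quality weights, 65 with all samples in 1 fit, 67 at a mean of 5 CPM or more and 52 at an adjusted p under 0.01. The low reads of Cthrc1, an estimated 5 to 46 in each sample, limit its precision.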

Other observations

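Marker lists of other lung cell types were counted in the same way, on CPM as deposited unless rescaling is named. In HDM vs. saline, 4.04% of all genes were called higher and 21.2% lower. In HDM vs. saline, 3 of 5 airway epithelium markers, 3 of 5 type 1 alveolar markers, 2 of 6 monocyte and neutrophil markers and 1 of 8 smooth muscle markers were called lower, and none of these was called higher. Of the 4 mesothelium and 5 type 2 alveolar markers none was called in this comparison. The 1 cartilage marker tested was called lower, and cartilage markers such as Acan and Cnmd were at or near 0. In HDM + Dex vs. HDM, 2 of 10 fibroblast markers were called lower and 1 of 8 smooth muscle markers higher. In aged vs. adult, 2 of 10 fibroblast markers were called lower and 3 of 6 monocyte and neutrophil markers higher (limma, adjusted p under 0.05). After rescaling, HDM vs. saline had 2 airway epithelium markers lower, 0 of cartilage, and 1 mesothelium marker higher. Of the monocyte and neutrophil markers, 1 was then higher and 1 lower. With Dex against HDM, 1 heart muscle marker was also higher. With age, 3 fibroblast markers and 1 smooth muscle marker were lower, and 4 monocyte and neutrophil markers higher.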
